A study of Mus musculus with 104 samples.

Results

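The 69 genes described here are the histone genes of the replication clusters, taken as every row of the deposited count tables whose symbol starts with Hist1h, Hist2h, Hist3h or Hist4h. They are 69 of 24958 genes and comprise 6 genes for the linker histone H1, 19 for H2A, 19 for H2B, 12 for H3 and 13 for H4. By their symbols, 55 belong to the Hist1 cluster, 10 to the Hist2 cluster and 3 to the Hist3 cluster, and Hist4h4 stands alone. In the GRCm38 annotation these lie on chromosomes 13, 3, 11 and 6. Hist1h2al, annotated as a processed pseudogene, lies apart from the other Hist1 genes (chr13:51202727-51203065, minus strand). Their mRNAs were measured by bulk RNA-seq in mouse libraries that were deposited as 18 tables.

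The cells were labelled as wild type unless a knock-out is named, and most came from TC1-GFP, a mouse embryonic stem cell line. The names of the media are given as the labels write them. Cells in 2MYCP medium, called mTBLCs, came from passages 6, 8, 14 and 19 (n = 4, called established here) and from passages 1, 2 and 4 (n = 3). Variants of this culture were 2MYCP on gelatin (n = 2), 2MYP medium, titled as lacking C (n = 2), a Ctnnb1 knock-out at passage 7 (n = 1), ICG001, an inhibitor of beta-catenin signalling through CBP (n = 1), and 2MYC medium at passages 1 to 6 (n = 6). Pluripotent cells (mPSCs) were kept in S/L medium (n = 3), and 1 of these libraries is titled as passage 0 of the 2MYCP series. Timed libraries came from S/L (0 to 92 h, n = 20), SFH (0 to 96 h, n = 23) and NTF medium (0 to 96 h, n = 7), and their labels give the medium of the course for the 0 h library too. Lines in SFH medium named TELC and PreLC were taken at passages 0, 1 and 2 (n = 3 each). Embryoid bodies in serum came from mTBLCs and from TC1 cells at days 3, 8, 10 and 12 (n = 4 each), with 1 line passaged from embryoid bodies in TSC medium, and blastoids were made in TNKM medium (n = 2). A set of 10 libraries is titled ZHBTc4, an embryonic stem cell line in which doxycycline silences Pou5f1, the gene for Oct4, although their cell-line label reads TC1-GFP. Those with doxycycline were in 2MYCP at passages 1 to 4 (n = 4) and 12 (n = 1). Others with doxycycline were in 2MYC at passages 2 and 3 (n = 2) and in S/L at passage 1 (n = 1). Those labelled without doxycycline were in S/L (n = 1) and in 2MYCP at passage 12 (n = 1). Material from ICR mice was an E3.5 blastocyst sample (n = 1) and lines derived from blastomeres in 2iLP medium, titled 4nM and 2-5nM (n = 2 each).

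Replication-dependent histone genes supply the H1 linker and the H2A, H2B, H3 and H4 core histones that package newly copied DNA. Their transcription is driven by NPAT in histone locus bodies during S phase, and their mRNAs usually end not in a poly(A) tail but in a stem-loop bound by SLBP, which ties their stability to DNA replication. Some of these genes also give polyadenylated mRNAs, mainly in differentiating or non-dividing cells, and libraries made from poly(A) RNA record mostly those. Whether the libraries of this study were made from poly(A) RNA or from RNA depleted of ribosomal RNA is not given in the sources used here.

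The histone genes took a small part of each library. Total counts were 1040731 to 56992230 per library, and the 69 genes together held 92 to 6752 of them, which is 0.00208% to 0.0269% (median 0.00551%), or 20.8 to 269 CPM (counts scaled to a library total of 1e6, median 55.1). Between 69.3% and 92.7% of the counts from 1 to 20 in a library were even, so the counting intervals given for single libraries are too narrow. The change in log2(CPM + 1) per 10-fold longer gene ran from -0.24 to 2.26 over the libraries. It was under 1 in 15 libraries, whose summed histone level had a median of 88.4 CPM, against 50.1 CPM in the other 89 libraries. No label tells whether libraries of the same group were grown apart, so the spread that the p-values rest on may be technical. Ctnnb1 was at 174 CPM in the library labelled as its knock-out and at 893 to 926 CPM in the 4 established mTBLC libraries. Low levels were not particular to the knock-out, with 222 CPM in 1 mPSC library, 199 and 316 CPM in TELC at passages 1 and 2, 424 CPM in the ICG001 library and 354 to 476 CPM in 4 ZHBTc4 libraries. Of the markers of the named cell types, 4 genes of the 2-cell embryo (Zscan4c, Zscan4d, Zfp352 and Usp17lc) summed to 155 to 270 CPM in established mTBLCs and to 0.375 to 11.6 CPM in mPSCs, and 4 pluripotency genes (Pou5f1, Sox2, Nanog and Zfp42) to 2126 to 3016 CPM in mTBLCs and 2647 to 3488 CPM in mPSCs. In these bulk samples, fewer cells making a histone mRNA and less of it per cell cannot be told apart.

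The ends of the annotated transcripts show how these genes differ. The stem-loop (6 paired bases, a loop of 4 bases, 6 paired bases) was found in an annotated transcript of 46 of the 69 genes and in 0.288% of 58715 other coding transcripts. A poly(A) signal, AATAAA or ATTAAA on the transcript strand within the last 50 bases, was found in 17 of the 69 genes and in 50.25% of the other coding transcripts, and 14 genes had both. Stem-loops of 5 genes that recur in the results are shown with 5 flanking bases on each side, the stem and loop in capitals (GENCODE M21 transcripts, 5′ to 3′).
Hist1h1c: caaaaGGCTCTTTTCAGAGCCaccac
Hist3h2a: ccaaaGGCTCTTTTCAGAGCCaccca
Hist1h4i: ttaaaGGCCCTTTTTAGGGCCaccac
Hist1h4h: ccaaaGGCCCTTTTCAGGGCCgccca
Hist1h3g: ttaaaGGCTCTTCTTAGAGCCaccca

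The first 4 of these, and Hist2h2be, for which no stem-loop was found, also carry a poly(A) signal near an annotated transcript end, in capitals in the stretches of 30 bases shown next.
Hist1h1c: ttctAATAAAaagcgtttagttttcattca
Hist3h2a: atatgcccAATAAAataagagtacgtgtat
Hist1h4i: tctgtttacATTAAAagtattctatgctaa
Hist1h4h: attttcttATTAAAagagcgaacatgtgtt
Hist2h2be: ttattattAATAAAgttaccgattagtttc
In Hist1h1c the annotated transcript runs on for 840 bases after the stem-loop, and in Hist3h2a for 1643 bases. Neither element was found in the annotated transcript of Hist1h2bc. The median level was 0.581 CPM per kb for genes with a poly(A) signal and 0.627 CPM per kb for genes without it, each the mean of a gene over all libraries. Among genes with a stem-loop it was 0.785 CPM per kb for the 14 with a poly(A) signal and 0.360 CPM per kb for the 32 without it. The 17 genes with a poly(A) signal held 42.4% of the summed mean level.

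The promoters differed by histone type. Of 61 histone genes with a RefSeq promoter (GRCm38.p6, 250 bases before to 50 after the start), 85.2% held CCAAT on either strand, against 37.8% of 26964 other promoters. CCAAT was in every H1, H2A, H2B and H3 promoter of this set but in 3 of 12 H4 promoters. TATAAA was in 57.4% of the histone promoters and in 14.1% of the others. The octamer ATTTGCAT was in 7 of 17 H2A and 6 of 16 H2B promoters and in none of the H1, H3 and H4 promoters, which makes 21.3% of the histone promoters against 1.71% of the others. AAACACA was in 5 of 6 H1 promoters, in 14.8% of all histone promoters and in 7.12% of the others. The promoters of Hist1h1c (chr13:23738557-23738856, plus strand) and Hist3h2a (chr11:58954435-58954734, plus strand), an H1 and an H2A gene among the most abundant, are shown with these motifs other than TATAAA in capitals, on whichever strand they were found. In Hist3h2a the capitals mark the octamer as its reverse complement and CCAAT once on each strand.
Hist1h1c: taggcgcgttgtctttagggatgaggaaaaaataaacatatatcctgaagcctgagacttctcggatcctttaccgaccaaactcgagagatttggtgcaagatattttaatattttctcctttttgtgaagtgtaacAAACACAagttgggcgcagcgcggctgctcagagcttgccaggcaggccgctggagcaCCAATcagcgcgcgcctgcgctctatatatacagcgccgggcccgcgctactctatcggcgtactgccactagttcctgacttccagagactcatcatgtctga
Hist3h2a: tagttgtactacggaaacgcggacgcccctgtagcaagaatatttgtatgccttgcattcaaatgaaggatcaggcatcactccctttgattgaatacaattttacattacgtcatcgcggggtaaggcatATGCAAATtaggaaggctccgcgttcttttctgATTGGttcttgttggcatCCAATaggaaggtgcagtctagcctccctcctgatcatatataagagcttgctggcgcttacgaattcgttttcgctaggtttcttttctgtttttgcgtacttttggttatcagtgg
A match is a description of these letters and not of a bound site.

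A pair of genes carried almost as much mRNA as the other 67 together. Hist1h2bc, an H2B gene (chr13:23684199-23692908, plus strand), averaged 16.7 CPM over all libraries and Hist1h1c, the gene for linker histone H1.2 (chr13:23738808-23740367, plus strand), averaged 12.5 CPM, together 46.2% of the summed mean. The top 8 genes held 65.3%, and 9 of the 69 averaged at least 1 CPM. By type, H2B held 39.3% of the summed mean, H1 26.3%, H4 14.5%, H2A 12.0% and H3 7.94%. The lowest and highest libraries differed widely for single genes, from 1.34 to 121 CPM for Hist1h2bc and from 1.92 to 71.5 CPM for Hist1h1c.

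Behind this pair came Hist3h2a, an H2A gene of the Hist3 cluster (chr11:58954685-58956830, plus strand; mean 3.36 and highest 19.9 CPM). The H4 genes Hist1h4i (chr13:22040636-22041362, minus strand; mean 2.84 and highest 15.9 CPM) and Hist1h4h (chr13:23531050-23531519, plus strand; mean 1.68 and highest 17.8 CPM) followed. Hist2h2be, an H2B gene of the Hist2 cluster (chr3:96221119-96223738, plus strand), averaged 1.52 CPM. The H1 genes Hist1h1d (chr13:23553262-23560686, plus strand) and Hist1h1a (chr13:23763666-23764406, plus strand) averaged 1.39 and 1.28 CPM. Per kb of gene, the order of the leading genes was Hist1h2bc at 14.4, Hist1h1c at 8.04, Hist1h4i at 3.90 and Hist1h4h at 3.57 CPM per kb. No H3 gene averaged above 1.51 CPM per kb, the level of Hist1h3c. Genes known from the testis were near the floor, with mean levels of 0.0727 CPM for Hist1h1t, 0.026 CPM for Hist1h2aa and 0.028 CPM for Hist1h2ba.

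Many of these genes are near copies of each other, which limits single values. In 35 of the 69 genes under 50% of the 50-base windows of the transcript were found in no transcript of another gene, and reads from such stretches can be split or lost in counting. The 7 genes at 0 in every library (Hist2h3c1, Hist2h3c2, Hist2h2aa1, Hist1h2bq, Hist1h2br, Hist1h2ap and Hist1h2ao) had at most 36.5% such windows, so 0 is not absence, and 3 counts over the counts of all libraries set an upper limit of 0.00117 CPM on what was counted. Hist1h2bc had 69.4% unique windows and Hist2h2be 100%. Exons of Hist3h2a overlap Trim17 on the same strand and Gm44313 on the other, and Hist1h2be shares exons with Hist1h1e.

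**Figure D1:**
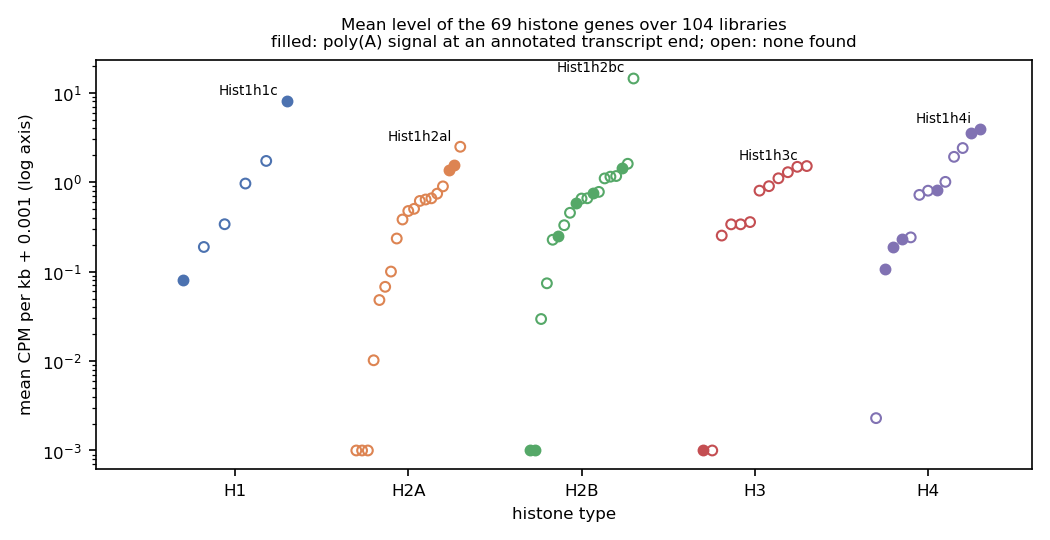
Mean level of each of the 69 histone genes over all libraries, in CPM per kb plus 0.001 on a log axis, by histone type, 1 point per gene. Filled points have a poly(A) signal at an annotated transcript end; Hist1h2bc and Hist1h1c stand highest, at 14.4 and 8.04 CPM per kb, and genes at 0.001 were at 0 in every library.

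Across groups, the summed histone level ranged from 20.8 CPM at 0 h in S/L medium to 269 CPM in ZHBTc4 cells at passage 4 with doxycycline. Comparisons within a table come first here, because differences between tables also carry differences between library sets.

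**Figure D2:**
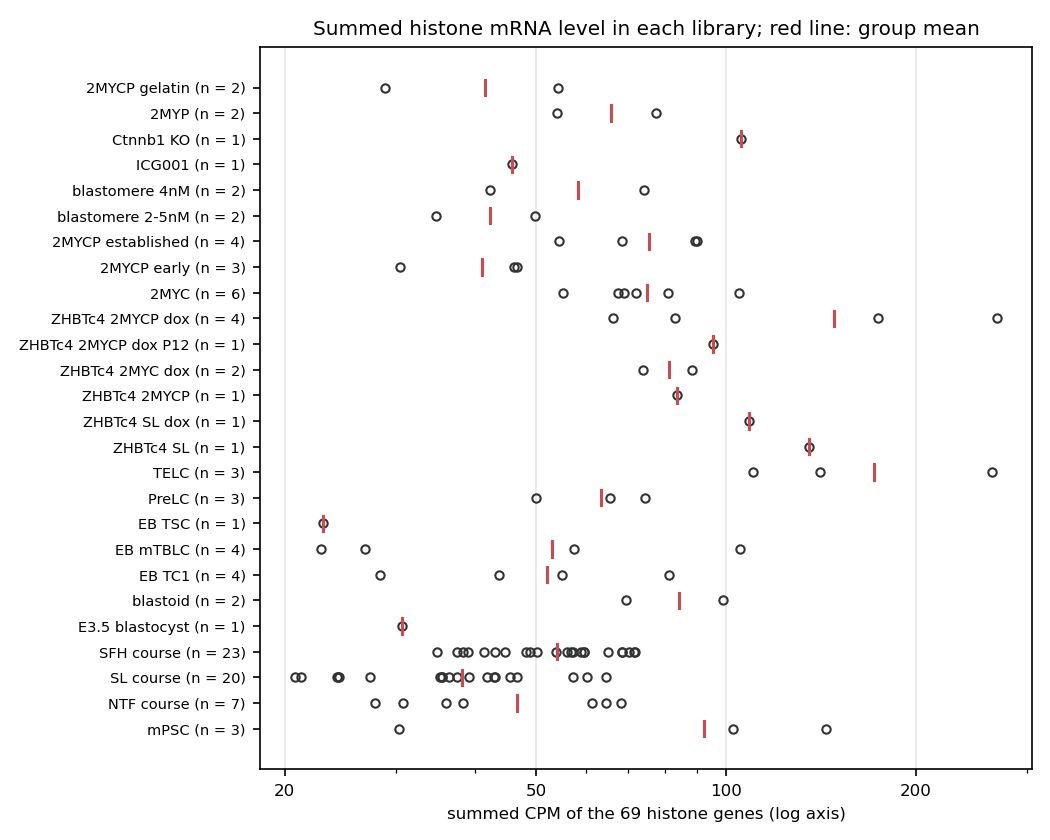
Summed CPM of the 69 histone genes in each library on a log axis, by group, 1 point per library, with the group mean as a red line. Libraries of 1 group lie up to several-fold apart, as in TELC (111 to 264 CPM) and mPSCs (30.3 to 144 CPM).

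In 2MYCP medium the leading genes rose with passage. In sum the 69 genes were at 30.4, 46.2, 46.7, 54.4, 68.5, 89.9 and 89.5 CPM at passages 1, 2, 4, 6, 8, 14 and 19. Hist1h1c was at 3.72, 10.8, 15.02, 12.98, 22.4, 29.3 and 29.999 CPM, and Hist1h2bc at 10.3, 17.7, 13.3, 14.5, 22.1, 30.05 and 30.2 CPM. Passages 14 and 19 stood highest for both. Tested per doubling of passage, Hist1h1c rose by 0.61 ± 0.09 on the log2 scale (SE, n = 7, edgeR quasi-likelihood test, Benjamini-Hochberg adjusted p = 0.0168) and Hist1h2bc by 0.31 ± 0.08 (adjusted p = 0.0493). They were the only 2 of 25 tested histone genes that passed, where 5.68% of all tested genes passed (4.03% rising and 1.64% falling), and 23 of the 25 had a positive slope (median 0.30, against 0.01 over all tested genes). Both calls rested on passage 19, without which the slopes were 0.66 (adjusted p = 0.0813) for Hist1h1c and 0.30 (adjusted p = 0.213) for Hist1h2bc. Hist1h2bc also missed the threshold without passage 1, 6, 8 or 14 (adjusted p = 0.0552 to 0.131). With the passage 0 library added, the slope of Hist1h2bc was -0.13. A list of 6 fibroblast genes (Col1a1, Col3a1, Col6a3, Prrx1, Lox and Dcn) summed to 346, 612, 483, 812, 908, 1348 and 1324 CPM over the same passages, and the part of such cells in the result was not tested. Of 16 S phase genes Mcm3, a subunit of the replicative helicase, fell by 0.14 per doubling and none rose, and among 12 replication-independent histone genes H1f0, a linker histone of non-dividing cells, rose by 0.38.

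**Figure D3:**
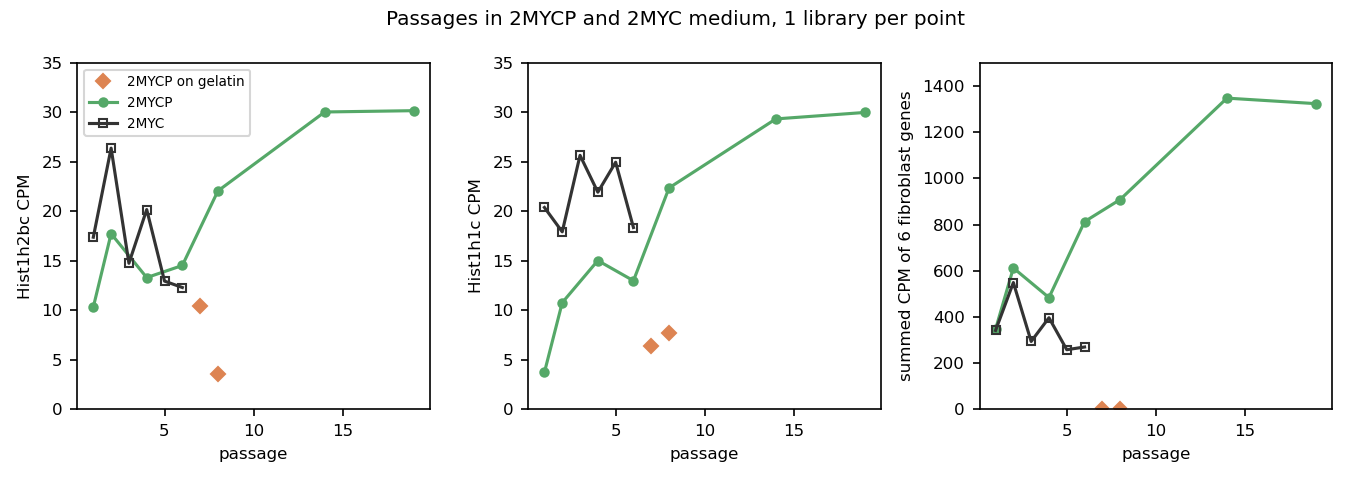
Hist1h2bc (left), Hist1h1c (middle) and the summed level of 6 fibroblast genes (right) in CPM by passage, 1 library per point, in 2MYCP on gelatin, 2MYCP and 2MYC. Both histone genes reach 29.3 to 30.2 CPM at passages 14 and 19 in 2MYCP, beside fibroblast sums of 1348 and 1324 CPM.

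No histone gene passed in the passages of 2MYC medium. At passages 1 to 6 the summed level was 72.0, 81.0, 105, 68.8, 67.3 and 55.2 CPM, and Hist1h1c stayed between 17.9 and 25.7 CPM. The edgeR test called 0 of 14 histone genes and 0.0145% of all tested genes. At an unadjusted p under 0.05 there were 0 histone genes and 15.4% of all genes, and DESeq2 called 0 histone genes and 1.66% of all genes. At the shared passages 1, 2, 4 and 6, the summed level averaged 44.4 ± 10.1 CPM in 2MYCP and 69.3 ± 10.7 CPM in 2MYC (SD, n = 4 each), with no overlap. Hist1h1c was at 3.72, 10.8, 15.02 and 12.98 CPM in 2MYCP and at 20.4, 17.9, 21.9 and 18.4 CPM in 2MYC, also with no overlap, but its log2 difference of -1.07 ± 0.34 did not pass (adjusted p = 0.0727). With passage as a block, edgeR called 0 of 10 tested histone genes and 13.4% of all tested genes. At an unadjusted p under 0.05 there were 3 histone genes and 30.8% of all genes, and DESeq2 called 2 histone genes and 21.2% of all genes. Without passage 6 edgeR called 2 histone genes, with the share of all genes in that fit not given here. All 10 had lower fitted levels in 2MYCP (median log2 difference -0.91, against 0.01 over all tested genes). The 2 media come from separate tables, and the 2MYC libraries held 6262507 to 7978538 counts against 20157050 to 42335106 in those 2MYCP libraries, whose part in the difference cannot be told apart from the medium.

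Established mTBLCs had lower levels than mPSCs of a few minor genes. In sum the 69 genes were at 54.4, 68.5, 89.9 and 89.5 CPM in established mTBLCs, against 102, 144 and 30.3 CPM in mPSCs, and the groups overlapped. Of 48 tested histone genes 3 fell and 0 rose, where 24.5% of all tested genes passed, 11.9% rising and 12.7% falling. Hist2h2be was at 0.968, 0.699, 0.439 and 0.630 CPM in established mTBLCs and at 3.57, 1.32 and 2.85 CPM in mPSCs, a fall of 2.04 ± 0.58 on the log2 scale (adjusted p = 0.0215). The groups did not overlap for this gene. Hist3h2ba, an H2B gene of the Hist3 cluster, fell by 2.06 ± 0.72 (adjusted p = 0.0489), with 0.739 ± 0.281 CPM in mTBLCs and 2.74 ± 2.15 CPM in mPSCs (SD, n = 4 and 3). The H4 gene Hist1h4d fell by 2.40 ± 0.71 (adjusted p = 0.0241). Without the mPSC library titled as passage 0, Hist2h2be still fell, by 2.28 (adjusted p = 0.0133), while Hist3h2ba (adjusted p = 0.268) and Hist1h4d (adjusted p = 0.233) did not pass. Without the mPSC library at 102 CPM only Hist1h4d passed, with an adjusted p of 0.0528 for Hist2h2be, and without the one at 30.3 CPM 6 histone genes fell. The shares of all genes called in these fits are not given here. Without mTBLC passage 8, 14 or 19 the count was 0. The median histone gene was 0.82 lower on the log2 scale, against a median of 0.03 over all tested genes. Of 16 S phase genes 6 also fell and 0 rose, among them Mcm6, a helicase subunit, by 1.01. The fibroblast genes summed to 812 to 1348 CPM in established mTBLCs and to 397 to 694 CPM in mPSCs. The length trend was 1.85 to 1.92 against 0.02 to 1.80. The mPSC libraries came from separate tables, the one titled as passage 0 from that of the mTBLCs. The part of these differences was not tested.

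On gelatin the pair of leading genes was low. Hist1h2bc was at 10.5 and 3.56 CPM on gelatin, against 14.5, 22.1, 30.05 and 30.2 CPM in established mTBLCs. Hist1h1c was at 6.33 and 7.68 CPM on gelatin, against 12.98, 22.4, 29.3 and 29.999 CPM. Neither gene's groups overlapped, but the log2 differences of -1.57 ± 0.60 for Hist1h2bc (adjusted p = 0.0745) and -1.53 ± 0.66 for Hist1h1c (adjusted p = 0.108) did not pass. The edgeR test called 0 of 48 histone genes and 22.7% of all genes. At an unadjusted p under 0.05 there were 6 histone genes and 37.0% of all genes, and DESeq2 called 4 histone genes, all lower, and 29.2% of all genes. The other 67 genes together averaged 27.5 ± 13.995 CPM on gelatin and 27.7 ± 2.8 CPM in established mTBLCs (SD, n = 2 and 4). The fibroblast genes summed to 2.60 and 3.13 CPM on gelatin, against 812 to 1348 CPM in established mTBLCs, and their part was not tested. The length trend was also flatter on gelatin, at 0.38 and 1.21 against 1.85 to 1.92.

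Without C, in 2MYP medium, no histone gene passed. The summed histone level was 77.3 and 54.0 CPM in 2MYP, against 54.4 to 89.9 CPM in established mTBLCs. Of 48 histone genes edgeR called 0, and of all genes 12.5%. At an unadjusted p under 0.05 there were 3 histone genes and 31.2% of all genes, and DESeq2 called 0 histone genes and 20.9% of all genes. Single libraries of the other variants lay on either side. The library labelled as Ctnnb1 knock-out summed to 106 CPM (exact 95% interval 102 to 109), with 50.05 CPM of Hist1h2bc, above the 30.2 CPM of the highest established library. The ICG001 library summed to 45.8 CPM (43.2 to 48.5), with 6.22 CPM of Hist1h1c, below the 12.98 CPM of the lowest established library. These intervals cover counting error only, and neither library has a replicate. The ICG001 sum lay between those of the gelatin libraries, 54.1 and 28.8 CPM. The fibroblast genes summed to 841 CPM in the knock-out library and to 87.3 CPM in the ICG001 library. In established mTBLCs they summed to 812 to 1348 CPM, and their part was not tested. All of these variants were set against the same 4 established libraries.

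In the S/L course the summed histone level was highest at about 1 day. The summed level was 20.8 to 24.4 CPM at 0 to 8 h (3 libraries), 46.7 to 64.6 CPM at 16 to 28 h (4 libraries), 35.2 to 45.4 CPM at 36 to 60 h (6 libraries) and 21.2 to 36.4 CPM at 68 to 92 h (6 libraries). The library of 12 h, between these windows, had 39.2 CPM, and the highest library was that of 24 h. Hist1h2bc was at 5.18 to 8.27, 14.6 to 22.1, 12.2 to 15.2 and 5.43 to 8.87 CPM over the same windows, and Hist1h1c at 2.08 to 4.25, 6.14 to 8.51, 3.04 to 5.92 and 2.05 to 6.68 CPM. For Hist1h2bc the libraries of 16 to 28 h did not overlap with those of 0 to 8 h or 68 to 92 h. Hist3h2a averaged 1.15 ± 0.21, 3.64 ± 0.34, 1.88 ± 0.49 and 2.29 ± 1.24 CPM (SD over the 3, 4, 6 and 6 libraries). Of 28 histone genes with enough counts to be ranked by hour, 18 had their highest library between 12 and 32 h, against 13.9% of 15764 other genes, and 9 had it later, 3 of them between 36 and 60 h and 6 from 64 h on.

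Fitted as a smooth curve of hours, the difference between 24 h and 0 h was added after these values were seen. At 24 h 9 of 42 tested histone genes had risen and 0 had fallen, where 24.9% of all genes passed, 12.5% rising and 12.4% falling. The fitted difference was positive for 41 of the 42, with a median of 1.45 on the log2 scale against -0.04 over all tested genes. The 9 genes were 4 of H2B, 2 of H4 and 1 each of H1, H2A and H3. The largest change was that of the H3 gene Hist1h3g, 2.67 ± 0.53 on the log2 scale (adjusted p = 9.60e-04), with 45.9% unique windows. Hist1h2bc rose by 1.74 ± 0.29 (adjusted p = 2.27e-04), Hist1h1c by 1.73 ± 0.30 (adjusted p = 2.97e-04), Hist3h2a by 1.90 ± 0.45 (adjusted p = 0.00402) and Hist1h4i by 1.62 ± 0.33 (adjusted p = 0.00136). Every histone type thus had at least 1 gene that rose in the first day.

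From 24 h to 92 h 1 of the 42 genes rose and 6 fell, where 51.1% of all genes passed. Hist1h2bc fell by 1.27 ± 0.26 (adjusted p = 3.13e-04), Hist1h2be, an H2B gene, by 1.53 ± 0.40 (adjusted p = 0.00281) and Hist1h4i by 0.87 ± 0.29 (adjusted p = 0.0141), while Hist3h2ba rose by 1.72. At 92 h against 0 h 4 genes were higher and 1 lower, where 40.5% of all genes passed. Hist2h2be was higher by 2.50 ± 0.75 (adjusted p = 0.0103) and Hist3h2ba by 2.26 ± 0.66 (adjusted p = 0.00838). Hist3h2a was higher by 2.05 ± 0.51 (adjusted p = 0.00258) and Hist1h1c by 1.31 ± 0.33 (adjusted p = 0.00307). Hist4h4, an H4 gene, was lower by 2.19 ± 0.83 (adjusted p = 0.0398). These are fitted differences, and for Hist1h1c and Hist3h2a the libraries of the first and last windows overlapped. Hist1h1c was at 2.08 to 4.25 and 2.05 to 6.68 CPM, and Hist3h2a at 0.914 to 1.31 and 0.981 to 4.32 CPM. Over 8 other settings the fitted difference was -0.43 to 1.37 for Hist1h1c and 0.20 to 2.38 for Hist3h2a. Each kept its call in 7 of the 8.

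The late S/L libraries were of 2 kinds. At 68, 76 and 92 h Hist2h2be was at 0.919, 0.936 and 1.19 CPM, and at 72, 80 and 88 h at 6.39, 5.50 and 5.28 CPM. The summed level was 21.2, 24.2 and 27.3 CPM in the first set and 35.5, 35.4 and 36.4 CPM in the second. Small RNAs without a poly(A) tail summed to 139 to 161 CPM in the first set and to 98.9 to 112 CPM in the second, and their part was not tested. Fits without either set were added after these values were seen, so for Hist2h2be they only restate the split and give no test of it. Without 72, 80 and 88 h, Hist2h2be differed by 0.66 between 92 h and 0 h. Without 68, 76 and 92 h it differed by 3.40 between 88 h and 0 h. Hist3h2ba did not pass without 72, 80 and 88 h (adjusted p = 0.102), and Hist4h4 did not pass without that set (adjusted p = 0.0709) or without the other (adjusted p = 0.133). The late rise of Hist2h2be rests on which late libraries are used.

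Part of the S phase genes also rose in the first day. The 16 S phase genes averaged 4020, 4863, 5227 and 4272 CPM in sum over the 4 windows. At 24 h 11 of the 16 had risen and 0 had fallen, with Ccne1, the cyclin that starts S phase, higher by 1.15 on the log2 scale, and from 24 h to 92 h 1 rose and 9 fell. The sums of the S phase genes were highest at 36 to 60 h, and those of the histone genes at 16 to 28 h. Against 12.5% of all genes rising at 24 h, 5 of 12 histone chaperones rose, and of 16 genes for histone mRNA processing and transcription 2 rose, a share near that of all genes: Cpsf2 of the cleavage complex by 0.31 and the cap-binding gene Ncbp2 by 0.64. Among 11 tested replication-independent histone genes 4 rose, such as H2afz by 0.76, and H2afy, the macroH2A gene, fell by 0.69.

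**Figure D4:**
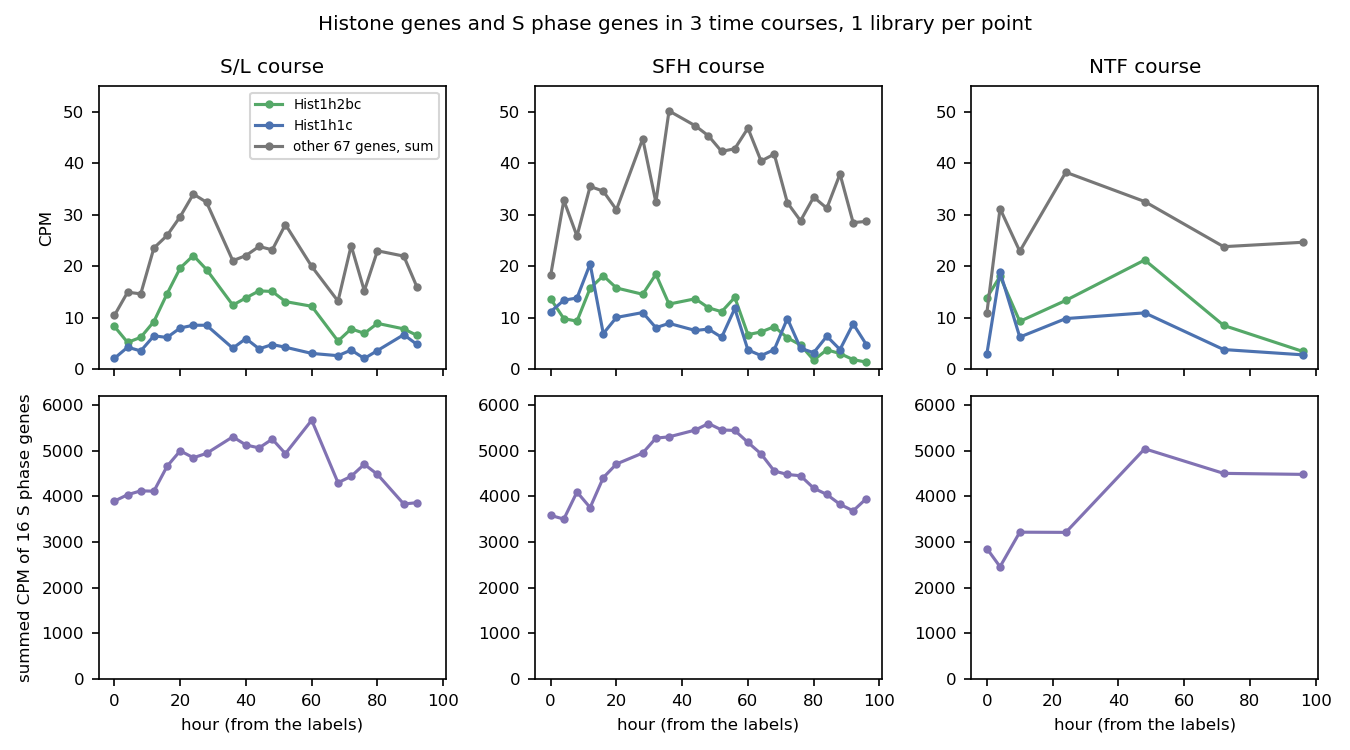
CPM by hour in the S/L, SFH and NTF courses, 1 library per point. Upper row: Hist1h2bc, Hist1h1c and the sum of the other 67 histone genes; lower row: the sum of 16 S phase genes. In S/L the histone lines peak near 24 h (Hist1h2bc 22.1 CPM), and in SFH Hist1h2bc ends at 1.34 CPM.

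In SFH medium Hist1h2bc fell, and the leading pair came to hold less of the histone counts. The summed level was 43.0 to 55.9 CPM at 0 to 8 h (3 libraries), 56.7 to 70.3 CPM at 16 to 28 h (3 libraries), 57.2 to 71.7 CPM at 36 to 60 h (6 libraries) and 34.8 to 53.8 CPM at 64 to 96 h (9 libraries). Hist1h2bc averaged 10.9 ± 2.4, 16.1 ± 1.8, 11.7 ± 2.7 and 4.21 ± 2.51 CPM over these windows, and Hist1h1c 12.8 ± 1.4, 9.30 ± 2.14, 7.63 ± 2.69 and 5.24 ± 2.55 CPM (SD). The libraries of 12 h and 32 h lie between these windows. They held the course's highest levels of the pair, with Hist1h1c at 20.4 CPM at 12 h and Hist1h2bc at 18.4 CPM at 32 h. The other 67 genes summed to 25.6, 36.8, 45.8 and 33.7 CPM. The share of Hist1h2bc and Hist1h1c in the histone counts was 48.8%, 41.2%, 29.3% and 21.7% over the windows.

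Few single genes passed in this course. At 92 h against 0 h 2 of 50 histone genes were higher and 1 lower, where 41.2% of all genes passed. Hist1h2bc was lower by 2.41 ± 0.32 on the log2 scale (adjusted p = 3.12e-07), with 1.34 to 8.23 CPM at 64 to 96 h. The H2A gene Hist1h2ae was higher by 2.68 ± 0.71 (adjusted p = 0.00291), at 1.56 to 2.93 CPM over 64 to 96 h and at 0.104 to 0.692 CPM over 0 to 8 h, with no overlap. Hist3h2ba also passed, from at most 0.0866 CPM in the first 3 libraries. At 24 h against 0 h, a difference added after the values were seen, 1 of 50 rose, Hist2h2bb, where 26.2% of all genes passed (13.5% rising and 12.7% falling), although 40 of the 50 differences were positive (median 1.26, against -0.04 over all genes). From 24 h to 92 h 6 fell and 0 rose, where 50.4% of all genes passed (26.7% rising and 23.7% falling), with Hist1h2bc lower by 2.96 ± 0.26 (adjusted p = 4.20e-11) and Hist1h1c by 0.87 ± 0.34 (adjusted p = 0.0331). The S phase genes averaged 3729, 4692, 5408 and 4235 CPM in sum over the windows, and 14 of the 16 rose at 24 h. Of 16 genes for histone mRNA processing and transcription 3 were higher and 1 lower at 92 h against 0 h, where 41.2% of all genes passed. Of this list Slbp, whose protein binds the stem-loop, was higher by 0.35.

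The course in SFH differed from that in S/L for the leading pair. The change from 0 h to 92 h was lower in SFH than in S/L by 2.86 ± 0.46 on the log2 scale for Hist1h2bc (adjusted p = 1.66e-05) and by 2.37 ± 0.64 for Hist1h1c (adjusted p = 0.00907). These were the only 2 of 56 histone genes past the test of this difference, where 11.9% of all genes passed, 5.30% higher and 6.60% lower. The courses started at unlike levels. Hist1h1c averaged 12.8 ± 1.4 CPM in SFH and 3.28 ± 1.10 CPM in S/L at 0 to 8 h (SD). In the last windows it averaged 5.24 ± 2.55 and 3.90 ± 1.66 CPM, so it did not end lower in SFH. Hist1h2bc averaged 10.9 ± 2.4 and 6.54 ± 1.58 CPM at 0 to 8 h, and 4.21 ± 2.51 and 7.23 ± 1.20 CPM in the last windows. The fibroblast genes averaged 145 CPM in SFH and 63.2 CPM in S/L at 0 to 8 h, and 16.9 CPM in SFH and 9.60 CPM in S/L in the last windows, and their part was not tested. The 2 courses came from separate tables.

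In NTF medium the levels were uneven over 7 libraries. The summed level was 27.8, 68.1, 38.4, 61.4, 64.7, 36.1 and 30.8 CPM at 0, 4, 10, 24, 48, 72 and 96 h. Hist1h2bc was at 13.9, 18.01, 9.26, 13.3, 21.2, 8.48 and 3.44 CPM, and Hist1h1c at 2.98, 18.9, 6.21, 9.81, 10.9, 3.79 and 2.76 CPM. The libraries of 4 and 24 h were the smallest, with 5774059 and 5099067 counts. At 96 h against 0 h 1 of 39 histone genes fell and 0 rose, where 32.0% of all genes passed, 16.7% rising and 15.3% falling. This was Hist1h2al, annotated as a processed pseudogene with 32.4% unique windows, lower by 3.35 ± 1.17 (adjusted p = 0.0459). It did not pass without the library of 4, 10, 24, 48 or 72 h (adjusted p = 0.0520 to 0.151). Without 24 h 3 other histone genes passed, with the share of all genes in that fit not given here. In the same comparison 14 of the 16 S phase genes and Slbp (by 1.02) rose. Of the 16 genes for histone mRNA processing and transcription 3 rose and 0 fell, a share near that of all genes.

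The highest summed level of all libraries was in ZHBTc4 cells in 2MYCP with doxycycline. From passage 1 to 4 the summed level was 66.2, 83.1, 174 and 269 CPM, 1 library each, with an exact 95% interval of 262 to 275 CPM at passage 4. Hist1h2bc was at 22.6, 29.97, 77.4 and 121 CPM, Hist1h1c at 10.1, 22.99, 43.9 and 71.5 CPM and Hist3h2a at 3.37, 5.71, 12.6 and 19.9 CPM. In ZHBTc4 cells in S/L medium without doxycycline, Hist1h2bc was at 30.4, Hist1h1c at 34.8 and Hist3h2a at 7.35 CPM, with a sum of 135 CPM (132 to 139). Passages 3 and 4 stood above the S/L library for all 3 genes.

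The H3 genes did not follow this order. They summed to 4.78, 3.78, 1.92 and 5.17 CPM over these passages, and the pair of leading genes held 71.9% of the histone counts at passage 4. The S phase genes summed to 2527, 1414, 695 and 897 CPM over the same passages, and were lowest at passages 3 and 4, where the histone sum was highest. Pou5f1 was at 16.7, 5.31, 0.192 and 0.716 CPM, against 620 CPM in ZHBTc4 cells in S/L. The fibroblast genes summed to 283, 1021, 919 and 1222 CPM and the length trend was 0.36, 1.92, 0.91 and 1.26, and their part in the levels was not tested.

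The sums of the other ZHBTc4 libraries were lower than those of passages 3 and 4 in 2MYCP with doxycycline, but not than that of passage 1. ZHBTc4 cells at passage 1 in S/L with doxycycline summed to 109 CPM (104.2 to 113.7), with 49.8 CPM of Hist1h1c. At passage 12 in 2MYCP the sum was 95.4 CPM with doxycycline and 83.5 CPM in the library labelled with 2MYCP alone, and Hist1h2bc was at 32.6 and 41.1 CPM. Pou5f1 was at 1.07 CPM with doxycycline and at 86.6 CPM in the library labelled with 2MYCP alone, against 620 CPM in ZHBTc4 cells in S/L, so the level in that library goes against cells with Pou5f1 left on. With doxycycline in 2MYC medium the sums at passages 2 and 3 were 88.4 and 73.8 CPM, where Hist1h1c was at 1.92 and 2.14 CPM and Hist1h4h at 15.4 and 7.24 CPM. The first of these rests on 92 histone counts in 1040731. None of these levels has a replicate, and no test was made.

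TELC lines had higher summed histone levels than PreLC lines in every library. The sum was 111, 264 and 141 CPM in TELC at passages 0, 1 and 2, against 74.4, 65.5 and 50.1 CPM in PreLC, with no overlap. Hist1h2bc was at 21.2, 34.7 and 69.4 CPM in TELC and at 15.9, 9.87 and 14.5 CPM in PreLC, a log2 difference of 1.74 ± 0.49 that did not pass (adjusted p = 0.269). Hist1h4h was at 1.75, 17.8 and 11.7 CPM in TELC and at 0.344, 0.692 and 2.40 CPM in PreLC. Hist1h1c overlapped between the lines, at 47.0, 17.5 and 9.76 CPM in TELC and 16.95, 12.1 and 14.6 CPM in PreLC. The edgeR test called 0 of 56 histone genes and 0% of all genes. At an unadjusted p under 0.05 there were 11 histone genes and 15.6% of all genes, and DESeq2 called 5 histone genes, all higher, and 5.54% of all genes. Without the passage 0 TELC library edgeR called 9 histone genes, all higher, and the share of all genes called in that fit is not given here. Of the 56 differences 50 were positive (median 1.57, against -0.03 over all genes).

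A single TELC library held part of this difference. Hist1h1d was at 1.08, 28.5 and 1.70 CPM in TELC, so passage 1 alone was high, and in PreLC it lay between 0.602 and 0.920 CPM. The length trend was 1.43, -0.24 and 0.04 in TELC, against 1.21 to 1.37 in PreLC, and the fibroblast genes summed to 210, 257 and 857 CPM in TELC, against 7.79, 9.63 and 324 CPM in PreLC. The S phase genes summed to 2786, 1589 and 1891 CPM in TELC and to 3631, 4030 and 2369 CPM in PreLC. The part of these measures in the histone levels was not tested.

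**Figure D5:**
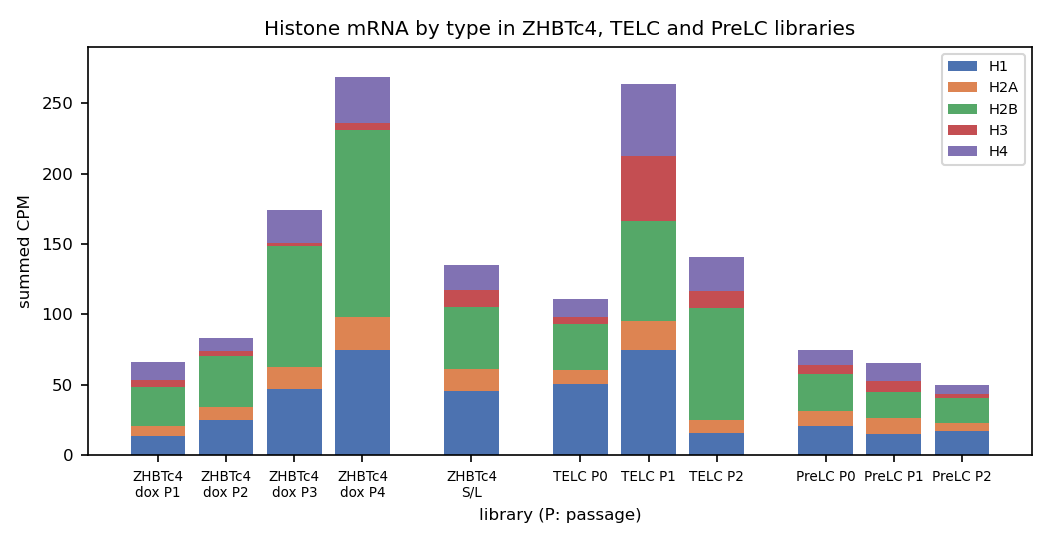
Summed CPM of the histone genes by type (stacked bars, 1 library each) in ZHBTc4 cells in 2MYCP with doxycycline at passages 1 to 4 and in S/L, and in TELC and PreLC at passages 0 to 2. ZHBTc4 passage 4 reaches 269 CPM, mostly H2B and H1, while TELC passage 1, at 264 CPM, has more H3 and H4.

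In embryoid bodies the levels were highest in the libraries labelled day 3. Pou5f1, whose level falls as embryonic stem cells differentiate, was at 18.9, 944, 60.4 and 44.6 CPM in bodies from mTBLCs labelled day 3, 8, 10 and 12, against 1608, 454, 98.0 and 31.9 CPM in bodies from TC1 cells. In bodies from mTBLCs it was thus lowest in the library labelled day 3 and highest in that labelled day 8, which goes against their day labels, and what follows on days rests on those labels. Over days 3, 8, 10 and 12 the sum was 105, 57.5, 22.8 and 26.8 CPM in bodies from mTBLCs, against 81.1, 54.9, 43.7 and 28.3 CPM in bodies from TC1 cells. Hist1h2bc was at 26.8, 6.95, 3.03 and 2.92 CPM in bodies from mTBLCs and at 17.2, 1.63, 2.51 and 2.79 CPM in bodies from TC1 cells. Hist1h1c was at 37.0, 10.1, 4.42 and 8.99 CPM in those from mTBLCs and at 30.6, 10.4, 16.9 and 6.39 CPM in those from TC1 cells. The library labelled day 3 was the highest for both genes in both kinds of body. Per day, the slope was -0.35 ± 0.07 for Hist1h2bc (adjusted p = 0.0842) and -0.25 ± 0.06 for Hist1h1c (adjusted p = 0.119). In the day trend edgeR called 0 of 29 histone genes and 0% of all genes, with 3 histone genes and 15.6% of all genes at an unadjusted p under 0.05, and DESeq2 called 2 histone genes, both lower, and 8.31% of all genes. Between the kinds of body edgeR called 0 of 13 histone genes and 0% of all genes, with 1 histone gene and 2.61% of all genes at an unadjusted p under 0.05, and DESeq2 called 0 histone genes and 0.0561% of all genes. The fibroblast genes summed to 3259, 20.4, 1913 and 5305 CPM in bodies from mTBLCs and to 498, 15.9, 550 and 3568 CPM in bodies from TC1 cells, and their part was not tested.

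In blastoids the leading pair held a small part of the histone counts, as it also did late in SFH medium (12.8% to 33.0% at 64 to 96 h). The 2 blastoid libraries summed to 69.5 and 98.8 CPM, and Hist1h2bc and Hist1h1c held 27.5% and 18.6% of their histone counts. In blastoids Hist1h1a was at 5.04 and 4.84 CPM and Hist1h1d at 3.87 and 5.38 CPM, and Hist1h2bc was at 7.45 CPM in both. The E3.5 blastocyst library summed to 30.7 CPM (27.9 to 33.7) from 441 histone counts, with Hist1h4i at 4.87, Hist1h1c at 4.24 and Hist1h2bc at 2.71 CPM. The line from embryoid bodies in TSC medium summed to 23.02 CPM (20.5 to 25.8). In the blastocyst an H4 gene led by a small margin, with no replicate to set beside it.

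Lines from ICR blastomeres differed from established mTBLCs and from mPSCs in a few minor genes. Their sums were 42.3 and 74.1 CPM for the lines titled 4nM and 34.8 and 49.7 CPM for those titled 2-5nM. Against established mTBLCs, 1 of 39 histone genes was higher and 1 lower, where 27.8% of all genes passed. Hist1h2al, the processed pseudogene with 32.4% unique windows, was higher by 2.56 ± 0.73 (adjusted p = 0.0236). It was at 1.41 to 3.01 CPM in the blastomere lines and at 0.175 to 0.612 CPM in established mTBLCs. Hist3h2ba was at 0 in 3 of the 4 blastomere lines and at 0.476 CPM in the other, against 0.437 to 1.10 CPM in established mTBLCs, and passed as lower (adjusted p = 0.0427). Both calls depended on single libraries. Hist1h2al had an adjusted p of 0.0636 and 0.0675 without mTBLC passages 14 and 19, and of 0.0879 and 0.0841 without the passage 4 line titled 4nM and 2-5nM. Hist3h2ba had an adjusted p of 0.0548 to 0.114 without any 1 of the other libraries than the passage 4 line titled 4nM.

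Against mPSCs, 1 of the 39 genes was higher and 4 were lower in the blastomere lines, where 26.8% of all genes passed. Hist2h2be was lower by 2.12 ± 0.48 (adjusted p = 0.00812), at 0.476 to 0.770 CPM in the blastomere lines and 1.32 to 3.57 CPM in mPSCs, with no overlap. Hist3h2a was lower by 2.09 ± 0.58 (adjusted p = 0.0210) and Hist1h4h by 3.32 ± 0.93 (adjusted p = 0.0216). Without the mPSC library titled as passage 0, neither passed (adjusted p = 0.0703 for Hist3h2a and 0.214 for Hist1h4h), and neither did without the passage 5 line of either title (adjusted p = 0.0759 to 0.0826). Without the mPSC library at 30.3 CPM 11 histone genes were lower, with the share of all genes in that fit not given here. Hist3h2ba was also lower, and Hist1h2af, an H2A gene at 0 in all mPSC libraries, was higher, with an adjusted p of 0.0552 to 0.0620 without any 1 of 4 libraries (the mPSC library at 30.3 CPM, the passage 4 line titled 4nM and both titled 2-5nM). The fibroblast genes summed to 2534 to 3722 CPM in the blastomere lines, and their part was not tested. The source, medium and table of these lines all differ from those of the other groups and cannot be told apart.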

How the data were processed

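Counts per gene symbol were deposited by the authors in 18 tables (VAHTS Universal V8 kit, per the labels' protocols). Per the submitters' processing notes, Trimmomatic, HISAT2 and featureCounts were used, with no versions, and the builds mm10 and hg38 are named; the annotation and any use of strand are not given in the sources used here. Of 24984 rows per table, 26 with names turned into dates were left out. Levels in CPM were scaled to each library's total, and summed levels have no test. All genes kept by filterByExpr entered each fit in edgeR 4.0.16 (R 4.3.3), with TMM scaling and the quasi-likelihood test, and a gene was called where its Benjamini-Hochberg adjusted p was under 0.05. A standard error is the log2 fold change divided by the square root of F. Courses were natural splines of hours (3 degrees of freedom, 2 for NTF). Passage was a block between 2MYCP and 2MYC, and day between the embryoid bodies. Established mTBLCs, mPSCs, gelatin and 2MYP shared a fit, and comparisons that share libraries are not independent. Alternatives were DESeq2 1.42.0 and its size factors, no low-count filter, leaving out libraries, other splines and blocks, and, chosen after seeing the data, halved counts, removal of each library's length trend (lengths for 98.2% of genes) and the 24 h differences. Only plain comparisons between groups were tried on simulated counts, with a fixed spread and with changes placed in the more abundant genes. Trends, splines, blocks and shared fits were not simulated.

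The histone genes and lists were chosen with earlier results of these data known. Named are the 8 genes with the highest mean CPM and, per comparison, up to 4 per direction with the largest change among those past the test with a mean of at least 1 CPM; all other histone genes given by name were chosen after their values were seen. Lists held 16 S phase genes, 12 chaperones, 16 genes of histone mRNA processing and transcription and 12 replication-independent histone genes.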

Additional observations from a re-analysis of the deposited data

Results flagged for a closer look

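The 8 leading genes and the sum were examined in each group of 4 to 10 libraries, and in 5 of 54 such cases a library lay far from the others. A chance rate of about 1 in 20 would hold for independent repeats of 1 condition. It does not apply here, as the cases share libraries and the sum holds the genes. In embryoid bodies from mTBLCs, Hist1h2bc was at 26.805 CPM in the library labelled day 3, against 2.92 to 6.952 CPM in the others, and Hist3h2a at 13.119 CPM, against 3.214 to 4.18 CPM. Pou5f1 was at 18.9 CPM in that library and at 944 CPM in the one labelled day 8, which goes against the day labels. In embryoid bodies from TC1 cells, Hist1h2bc was at 17.176 CPM in the library labelled day 3, against 1.634 to 2.791 CPM in the others, and Hist1h4h at 2.115 CPM, against 0 in the others. In the NTF course Hist1h4h was at 0.981 CPM at 24 h, against 0.145 to 0.409 CPM at the other hours. In these groups the libraries differ by day or hour, so they are not repeats of 1 condition.

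The change from 0 h to 92 h differed between the SFH and S/L courses for Hist1h2bc (difference of the log2 changes -2.861) and for Hist1h1c (-2.374), each past the test of the interaction over all genes.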

How the results depend on the processing

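The counts of histone genes called lay within 1.5 times the reported one in 156 of 215 repeats. DESeq2 called 4 genes on gelatin, 2 for 2MYCP against 2MYC, 4 in the 2MYCP passage trend, 14 at 24 h in S/L, 7 at 92 h and 2 at 24 h in SFH, 2 in NTF, 5 for TELC, 2 over embryoid body days, and 5 and 10 for blastomere lines against mTBLCs and mPSCs. With the length trend removed, the calls were 1 for mTBLCs against mPSCs, 5 on gelatin, 1 for 2MYP, 5 at 92 h and 0 at 24 h in SFH, 0 in NTF and 6 for blastomere lines against mTBLCs. With no filter they were 1 for 2MYCP against 2MYC, 1 in the passage trend, 0 at 24 h in SFH and 4 in NTF. Halved counts gave 2 at 24 h in SFH, 2 in NTF and 1 for blastomere lines against mTBLCs. DESeq2 size factors gave 1 in the passage trend and 2 in NTF. Passages 6 and 8 alone against mPSCs gave 0, and a straight line in NTF 0. Adding passage 0 to the trend gave 0 calls and a slope of -0.129 for Hist1h2bc. In S/L without 72, 80 and 88 h, 3 genes were called at 92 h against 0 h and 12 from 24 h to 92 h. A straight line gave Hist1h1c -0.427 at 92 h in S/L, of opposite sign. With TMM-scaled totals, ZHBTc4 cells in 2MYC with doxycycline averaged 107.678 CPM. DESeq2 also called more of all genes, with 29.2% against 22.7% by edgeR on gelatin and 21.2% against 13.4% for 2MYCP against 2MYC. For most of the other repeats the share of all genes is not given here. Their counts therefore do not tell a change in the histone genes from a change in all genes. The cause of these shifts was not tested.

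Leaving out each library in turn gave 0 to 6 calls for mTBLCs against mPSCs (6 without the third mPSC library), 0 to 0 on gelatin, in 2MYP, in the 2MYC trend and in both embryoid body fits, 0 to 2 for 2MYCP against 2MYC (2 without passage 6), 0 to 2 in the passage trend (0 without passage 19), 0 to 3 in NTF, 0 to 9 for TELC (9 without passage 0), 0 to 1 for blastomere lines against mTBLCs and 2 to 11 against mPSCs (11 without the third mPSC library). Where 1 library remained in an arm, the spread came from the rest of the fit, so that library is taken to vary as those do. For these counts the shares of all genes called are not given here. Of 361 repeats for the histone genes called in a comparison, 73 lost the call and 2 changed sign.

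Same-numbered libraries deviated together by correlations of 0.001 to 0.154 for 2MYCP and 2MYC, 0.093 to 0.234 for TELC and PreLC and 0.093 to 0.585 for embryoid bodies, so the correlations do not show in every pair that the numbers pair the libraries. Passage and day were nevertheless blocks in the fits of 2MYCP against 2MYC and of embryoid bodies, as matched times, and TELC and PreLC had no block. The replicate block changed no count: 0 of 43 genes were called with it for TELC, and 0 of 10 and 0 of 13 without it for 2MYCP against 2MYC and for embryoid bodies.

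Depth limits the low genes: 16 to 60 of the 69 were detected per library, and 92 counts in the smallest library leave single genes with a handful of reads.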
